A study of Mus musculus with 26 samples.

Results

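A pair of wild-type groups of a chronic myeloid leukaemia (CML) mouse study were compared, chosen by their sample titles: 5 libraries of HSC wt mice against 5 libraries of Spred1 wt mice, 10 of the 26 libraries of the series. All cells were LSK cells, the Lin-Sca-1+c-Kit+ fraction of bone marrow that holds stem cells and multipotent progenitors. All mice carried SCLtTA/BCR-ABL, on the C57BL/6 strain. In this model a tetracycline-controlled transactivator under Scl gene sequences, active in blood stem and progenitor cells, switches on the BCR-ABL oncogene. The HSC wt mice had intact Spred1 in the line built for deletion in blood stem cells and were given poly(I:C) at 7 doses of 250 µg, intraperitoneally, every 2 days, to switch on Mx1-cre. For the Spred1 wt mice, the controls of a germline Spred1 knockout, no poly(I:C) is stated. Stated poly(I:C), the breeding line and Mx1-cre therefore cannot be told apart in this comparison. The remaining groups were HSC KO (5 libraries, the same poly(I:C), Spred1 deleted through Mx1-cre), global KO (6 libraries, Spred1 deleted in all cells) and EC KO (5 libraries, Spred1 deleted in endothelial cells). The sources used here give neither the ages of the mice nor the time from the last dose to the sort. The question put to the data was which transcripts separate these controls, since poly(I:C) is itself a strong stimulus.

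Poly(I:C) is a synthetic double-stranded RNA that cells take for a virus. Sensors such as TLR3, MDA5 and RIG-I detect it, cells secrete type I interferon, and the interferon receptor signals through JAK kinases to transcription factors that bind interferon-response elements in the promoters of interferon-stimulated genes. The Mx1 promoter that drives the Cre recombinase is such a promoter. In bone marrow, interferon is known to drive quiescent stem cells into cycle for a time and to raise Sca-1, encoded by Ly6a, which is one of the proteins the LSK gate selects on.

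Because the comparison turns on whether these promoters' genes differed, the 250 bases before the start site are shown for 3 of them, Isg15 (a ubiquitin-like antiviral protein), Rsad2 (the antiviral enzyme viperin) and B2m (the light chain of MHC class I). The sequences are those of RefSeq on build GRCm38.p6, read 5′ to 3′ in the direction of the gene, at chr4:156200819-156201068 on the minus strand, chr12:26456453-26456702 on the minus strand and chr2:122147437-122147686 on the plus strand. Capitals mark matches to the core of the interferon-response element, GAAA, any 2 bases and GAAA again, or to the same on the other strand, which reads TTTC, any 2 bases and TTTC.
Isg15: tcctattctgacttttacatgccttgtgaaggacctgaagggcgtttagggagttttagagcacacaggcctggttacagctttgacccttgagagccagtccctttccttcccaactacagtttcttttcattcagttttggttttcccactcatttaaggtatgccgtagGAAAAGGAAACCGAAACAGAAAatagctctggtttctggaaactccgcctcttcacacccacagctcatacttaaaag
Rsad2: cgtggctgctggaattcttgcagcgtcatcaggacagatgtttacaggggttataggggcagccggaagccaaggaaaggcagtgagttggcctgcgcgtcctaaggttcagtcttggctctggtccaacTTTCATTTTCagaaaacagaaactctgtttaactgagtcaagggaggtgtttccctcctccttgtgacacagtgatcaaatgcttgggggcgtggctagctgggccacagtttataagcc
B2m: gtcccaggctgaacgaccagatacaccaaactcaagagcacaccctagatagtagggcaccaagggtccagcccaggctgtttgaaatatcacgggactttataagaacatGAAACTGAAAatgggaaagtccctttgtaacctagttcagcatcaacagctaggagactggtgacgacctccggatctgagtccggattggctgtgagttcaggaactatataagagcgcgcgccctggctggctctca
Isg15 held 3 overlapping matches, starting 78, 72 and 66 bases before the start site. Rsad2 held 1, on the reverse strand and starting 120 bases before it, and B2m held 1, at 139 bases. The window of Irf7 held 0 matches, which says only that these letters are not in this window.

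Libraries held 14816071 to 20197400 counts in Spred1 wt and 16284176 to 26714325 in HSC wt. Levels below are CPM, the counts of a gene as a share of the library scaled to a common size. Of the genes of the gate, Kit averaged 986 CPM in HSC wt and 930 CPM in Spred1 wt, and Ly6a 55.8 and 65 CPM. Cd34 averaged 795 and 755 CPM. The T cell gene Cd3e was near 0, at 0.167 and 0.144 CPM, but other lineage transcripts were not. Cpa3 of the mast cell list averaged 1649 and 2646 CPM, and S100a9 of the neutrophil list 149 and 77.1 CPM. Nkg7 of the T and NK cell list averaged 85.2 and 79.7 CPM. Spred1 lay between 92.4 and 148 CPM in the 10 wild-type libraries, against 22.4 to 47.4 CPM in the HSC KO and global KO libraries. All 5 Spred1 wt libraries were male by their Y-linked transcripts, whereas HSC wt held 3 male and 2 female libraries, so that sex is partly tied to the comparison. In bulk libraries, fewer cells of a type and less RNA per cell cannot be told apart. The labels give 5 mice for each HSC group and state no number for Spred1 wt, so the p-values measure the spread between these libraries.

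Few genes differed between the controls, and none of them was in the interferon lists. Of 13379 genes tested in edgeR, 4 fell in HSC wt at an adjusted p under 0.05 (0.0299% of genes): Kcnip3, Spint1, Sqrdl and Slamf9. No gene rose (0 genes, 0%), although 374 genes (2.8%) were higher at an unadjusted p under 0.05, and DESeq2 called 11 genes higher and limma voom 4. At that unadjusted level 476 genes (3.56%) were lower. Together these are 850 genes (6.35%). In 254 genes (1.9%) the 5 libraries of one group all lay above the 5 of the other, with HSC wt higher in 107 (0.8%) and lower in 147 (1.1%).

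Kcnip3 encodes calsenilin, a calcium-binding protein that also acts as a transcriptional repressor. It measured 0.661, 0.54, 0.696, 1.32 and 0.791 CPM in the 5 HSC wt libraries and 1.41, 13.6, 8.33, 15.1 and 12.4 CPM in the Spred1 wt libraries. The groups did not overlap, but Spred1 wt library 1 lay just above the highest HSC wt library and far below the rest of its own group. The log2 difference was -3.65 ± 0.43 (SE), adjusted p = 9.78e-05. The global KO, HSC KO and EC KO libraries, 0.292 to 1.45 CPM, lay at the level of HSC wt, so the Spred1 wt libraries 2 to 5 were the ones that stood apart in the series.

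Spint1, an inhibitor of cell-surface serine proteases, measured 0.567, 1.14, 0.789, 1.22 and 1.17 CPM in HSC wt and 0.962, 5.27, 6.84, 3.7 and 4.1 CPM in Spred1 wt. Here Spred1 wt library 1 lay inside the range of HSC wt. The log2 difference was -2.10 ± 0.35 (SE), adjusted p = 0.0249. Sqrdl, the mitochondrial sulfide oxidase, was more abundant, with 7.32, 9.11, 8.31, 9.57 and 11.3 CPM in HSC wt against 13.2, 18.8, 21.3, 21 and 19.3 CPM in Spred1 wt. Its groups did not overlap, library 1 was again the lowest of Spred1 wt, and the log2 difference was -1.04 ± 0.19 (SE), adjusted p = 0.0376. Slamf9, a surface receptor of the SLAM family found on myeloid and plasmacytoid cells, measured 0.52, 0.48, 0.371, 0.317 and 0.301 CPM in HSC wt and 3.33, 1.85, 0.882, 3.44 and 0.65 CPM in Spred1 wt. It did not overlap either, and Spred1 wt library 1 was here among the highest (log2 difference -2.34 ± 0.43 SE, adjusted p = 0.0387).

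**Figure D1:**
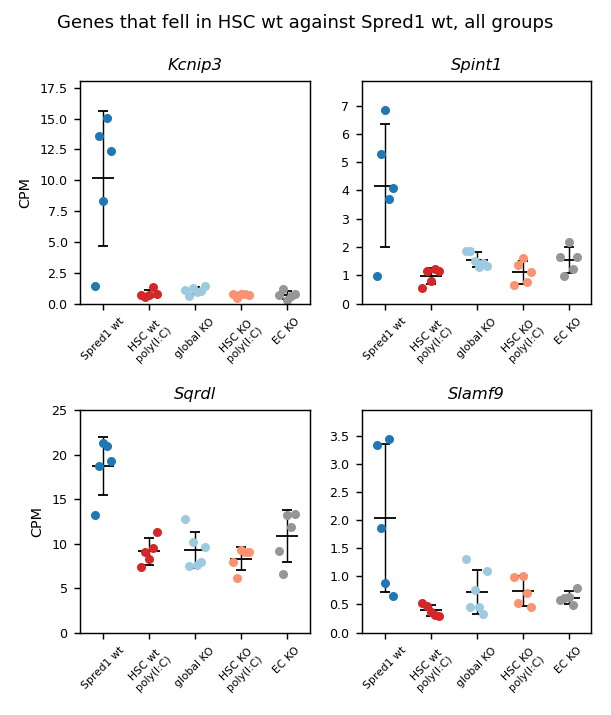
CPM (linear axis) of the 4 genes that fell, 1 point per library in all 5 groups, with the group mean and SD as a bar. Kcnip3 and Spint1 are low in every group except Spred1 wt libraries 2 to 5, and Sqrdl is highest in Spred1 wt.

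The Kcnip3 call held when any 1 of the 10 libraries was left out, and with covariates for sex, mast cell or macrophage transcripts. It was lost when only the 2 groups entered the fit (adjusted p = 0.0868). The other 3 calls were less firm. Spint1 lost its call without Spred1 wt library 2 or 3 (adjusted p = 0.0546 and 0.0815) and without any HSC wt library (0.11, 0.0834, 0.134, 0.0662 and 0.0532 for libraries 1 to 5). Sqrdl lost it without Spred1 wt library 2, 3, 4 or 5 (adjusted p = 0.0546, 0.109, 0.116 and 0.0965) and without HSC wt library 1, 2, 3 or 4 (0.14, 0.0903, 0.134 and 0.118). Slamf9 lost it without Spred1 wt library 2 or 4 (adjusted p = 0.0546 and 0.19) and without any HSC wt library (0.11, 0.0903, 0.134, 0.172 and 0.143 for libraries 1 to 5). With a covariate for female libraries the adjusted p was 0.0818 for Spint1, 0.0887 for Sqrdl and 0.0887 for Slamf9, with log2 differences of -1.99, -1.01 and -2.25.

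Kcnip3, Spint1 and Sqrdl lie on chromosome 2, at 10.3, 2.12 and 5.64 Mb from the start of Spred1 (mm10 coordinates of the deposited table: Kcnip3 127456498 to 127522094, Spint1 119237360 to 119249513, Sqrdl 122765359 to 122809551, Spred1 117121071 to 117182277). Of the 250 tested genes within 20 Mb of Spred1, 60 (24%) had an unadjusted p under 0.05 and 17 (6.8%) did not overlap between the groups. For the rest of chromosome 2 the share under 0.05 was 6.16%, and for the other chromosomes 6.01%. The window was chosen with earlier results of these data known, so these shares are a description. The differences in the window went both ways and were often small, and they set 4 of the 5 Spred1 wt libraries apart from library 1.

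**Figure D2:**
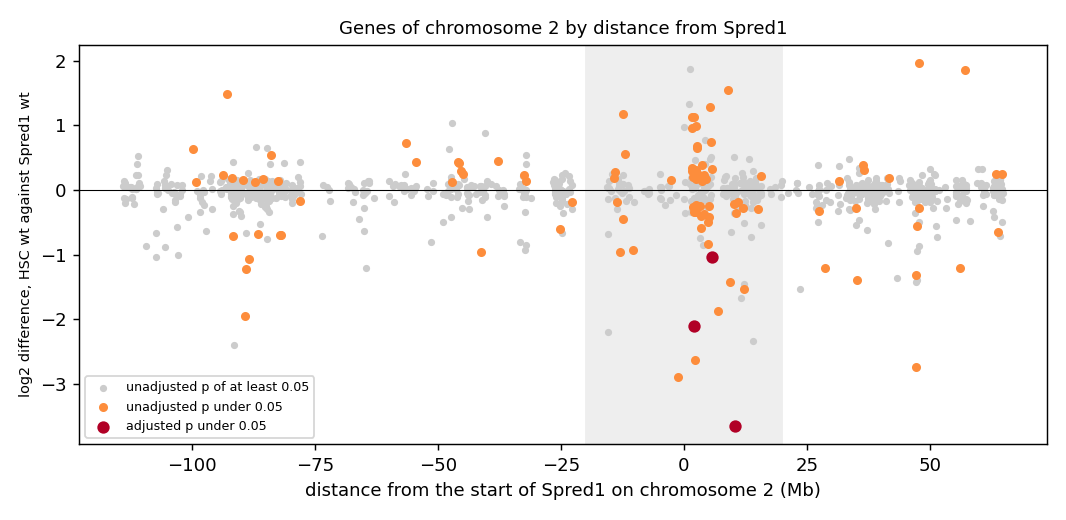
Log2 difference of HSC wt against Spred1 wt (y axis) for the 1046 tested genes of chromosome 2, by distance in Mb from the start of Spred1 (x axis), with the 20 Mb window shaded. Inside the window 24% of genes have an unadjusted p under 0.05 (orange or red) against 6.16% on the rest of the chromosome, in both directions.

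The abundant genes Eif3j1, Snap23 and Inafm2 of the window, named after their values were seen, show this split. Eif3j1, a translation initiation factor subunit, measured 37.7, 40.4, 48.8, 47.6 and 45.9 CPM in HSC wt and 35, 71.3, 80, 117 and 91.2 CPM in Spred1 wt. Snap23, a membrane fusion protein, measured 53.1, 54.7, 53, 53.8 and 53.5 CPM in HSC wt and 48.2, 75, 84.6, 96.1 and 97.9 CPM in Spred1 wt. In both, Spred1 wt library 1 was the lowest of all 10 libraries and Spred1 wt libraries 2 to 5 lay above every HSC wt library. Inafm2, a gene of poorly known function and 1 of the 5 genes of smallest p among those higher in HSC wt, showed the reverse: 52.5, 51.5, 55.5, 53.4 and 53.7 CPM in HSC wt, with 52.6 CPM in Spred1 wt library 1 and 40, 44.8, 40.1 and 39.5 CPM in libraries 2 to 5. None of the 3 passed (adjusted p = 0.174, 0.22 and 0.174 for Eif3j1, Snap23 and Inafm2). Over the 60 genes of the window with p under 0.05, library 1 of Spred1 wt lay nearer to the HSC wt mean in 37, against 5, 10, 13 and 7 genes for libraries 2 to 5. The genes were picked on these libraries, so the counts carry no test.

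Leaving out Spred1 wt library 1 gave 21 calls, 9 higher and 12 lower, of which 14 lay within 20 Mb of Spred1. Leaving out any other library gave 1 to 3 calls. Library 1 was singled out after its values in the window were seen, so the calls and adjusted p of this refit are a description and carry no test. The 14 included Eif3j1 (log2 difference -1.03, adjusted p = 0.00051), Snap23 (-0.72, adjusted p = 0.0044), Inafm2 (0.37, adjusted p = 0.00307), Spg11, an endosomal and lysosomal protein (-0.61, adjusted p = 0.00051), and Pak6, a p21-activated kinase (1.09, adjusted p = 0.0467). The share of window genes at an unadjusted p under 0.05 was then 26.7%, against 6.92% of all other genes. The 7 calls outside the window included Hmga2, a chromatin protein of fetal stem cells (1.53, adjusted p = 0.00897), and Grap, an adaptor of the GRB2 family (-1.13, adjusted p = 0.0321). No interferon-stimulated gene of the lists was among the 21.

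Outside the window, Hmga2 was among the genes of smallest p that were higher in HSC wt with all libraries in the fit. It measured 16.1, 10.5, 7.66, 12 and 15.4 CPM in HSC wt against 8.66, 5.51, 3.75, 3.44 and 4.29 CPM in Spred1 wt, with Spred1 wt library 1 above the lowest HSC wt library (log2 difference 1.26 ± 0.27 SE, adjusted p = 0.123). Depdc7, a DEP domain gene in the window, had groups that did not overlap, 3.78 to 7.31 against 1.57 to 3.2 CPM (1.17 ± 0.24 SE, adjusted p = 0.104). Hist1h4m, a histone H4 gene whose reads may be shared with near-identical copies, was at 0.331 to 0.793 CPM against 0 to 0.237 CPM (2.22 ± 0.52 SE, adjusted p = 0.174).

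The interferon pathway gave no call, and most of its members lay lower, not higher, in the group with stated poly(I:C). Over all 13379 genes, 52.1% were lower in HSC wt, 47.9% were higher and the median log2 difference was -0.01. Of 52 tested interferon-stimulated effectors 41 were lower and 11 higher (median -0.20), of 17 interferon-inducible GTPases 17 were lower (median -0.34), and of 10 genes of the p200 family, which sense DNA, 10 were lower (median -0.59). The abundant p200 genes Ifi203, Mndal and Aim2 were near even, averaging 205, 107 and 64.6 CPM in HSC wt and 214, 111 and 66.3 CPM in Spred1 wt. Ifi209 averaged 10.8 and 17.1 CPM. Ifi205, Ifi208, Ifi211 and Ifi213 averaged below 1 CPM in both groups. Of 19 receptors and JAK-STAT-IRF signalling genes 17 were lower (median -0.16), and of 9 sensors and adaptors of double-stranded RNA 6 were lower (median -0.09). Summed levels in HSC wt and Spred1 wt overlapped for effectors (2470 to 2882 and 2667 to 3031 CPM) and GTPases (426 to 496 and 470 to 598 CPM). They also overlapped for p200 genes (340 to 476 and 295 to 565 CPM) and sensors (351 to 408 and 361 to 475 CPM). Receptors and signalling genes did not overlap (1598.8 to 1692.5 and 1720.4 to 1798 CPM). In these 5 lists 0 genes passed in edgeR, and DESeq2 and limma voom called 0 of their genes. At an unadjusted p under 0.05 in edgeR, 1 gene was higher and 5 were lower. Over all genes tested, 2.8% were higher and 3.56% lower at that level. The lists share regulators and members of a list vary together across libraries, so their counts are not independent. Lists outside the pathway also lay mostly lower, among them ribosomal proteins (33 of 35) and the BCL2 family (13 of 14). Erythroid markers (10 of 11) and p53 targets (13 of 16) did so too. The erythroid median was -0.50 and ran from -1.135 to 0.11 when the fit was varied. Lists that lay mostly higher were neutrophil (12 of 13), megakaryocyte (8 of 11) and T and NK cell markers (5 of 7). Genes of DNA replication (13 of 16) and cholesterol synthesis (14 of 17) were also mostly higher. When the fit was varied, the T and NK median of 0.09 ran from -0.26 to 0.35. The DNA replication median of 0.05 ran from -0.03 to 0.12.

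The named genes of the pathway run in the order sensors, signalling, effectors. Ddx58, which encodes RIG-I, was at 47.8 to 71.8 CPM in HSC wt and 56.2 to 79.8 CPM in Spred1 wt, overlapping widely (-0.21 ± 0.20 SE, adjusted p = 0.904). Zbp1, a sensor of Z-form nucleic acid that triggers cell death, measured 4.96, 6.54, 6.08, 5.55 and 4.74 CPM against 10.8, 7.88, 10, 17.6 and 17.9 CPM. Its groups did not overlap, and the spread within Spred1 wt was wide (-1.20 ± 0.36 SE, adjusted p = 0.453). Irf7, the factor that amplifies interferon production and is itself induced by it, measured 8.46, 9.71, 6.54, 6.19 and 6.89 CPM in HSC wt and 18.3, 16.1, 13.1, 16 and 13.5 CPM in Spred1 wt. These groups did not overlap either (-1.03 ± 0.44 SE, adjusted p = 0.707). Irf9 overlapped (30.4 to 41.1 against 40.3 to 59 CPM, adjusted p = 0.802).

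Among the effectors, Isg15 measured 2.41, 4.08, 2.23, 2.01 and 2.15 CPM in HSC wt and 4.55, 2.9, 6.12, 8.57 and 6.18 CPM in Spred1 wt. HSC wt library 2 lay above Spred1 wt library 2, and the other 4 libraries of HSC wt lay below all of Spred1 wt (-1.14 ± 0.40 SE, adjusted p = 0.578). Ifi27l2a, a small mitochondrial interferon-induced protein, measured 0.709, 1.08, 0.418, 0.899 and 0.753 CPM against 1.99, 1.76, 1.76, 4.03 and 3.12 CPM, without overlap (-1.71 ± 0.56 SE, adjusted p = 0.529). Mx1, the antiviral GTPase whose promoter drives the Cre, was named after its values were seen, as was Rsad2. Mx1 measured 1.75, 2.28, 2.18, 1.64 and 1.58 CPM in HSC wt and 5.71, 3.09, 2.32, 6.3 and 4.81 CPM in Spred1 wt, just short of overlapping (-1.23 ± 0.68 SE, adjusted p = 0.805). Rsad2 also did not overlap, at 7.08 to 12.8 CPM against 13 to 17.7 CPM (-0.72 ± 0.40 SE, adjusted p = 0.811). In the opposite direction, Slfn9, a member of the Schlafen family, was higher without overlap at 62.9 to 74.3 CPM against 45.3 to 62.3 CPM (0.34 ± 0.10 SE, adjusted p = 0.36).

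The standard errors reflect the whole fit, in which these genes varied widely within other groups. In HSC KO, which had the same stated poly(I:C), library 1 measured 27.2 CPM of Irf7 and 14.5 CPM of Mx1, while its libraries 2 to 5 lay at 5.9 to 6.66 CPM and 0.639 to 2.44 CPM. Without stated poly(I:C), the global KO libraries ran from 5.11 to 24.6 CPM of Irf7 and from 0.993 to 5.97 CPM of Mx1. Single libraries of both kinds thus reached levels above every HSC wt library. With only the compared groups in the fit, St6gal1 was the 1 call, so none of the interferon genes passed there either.

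**Figure D3:**
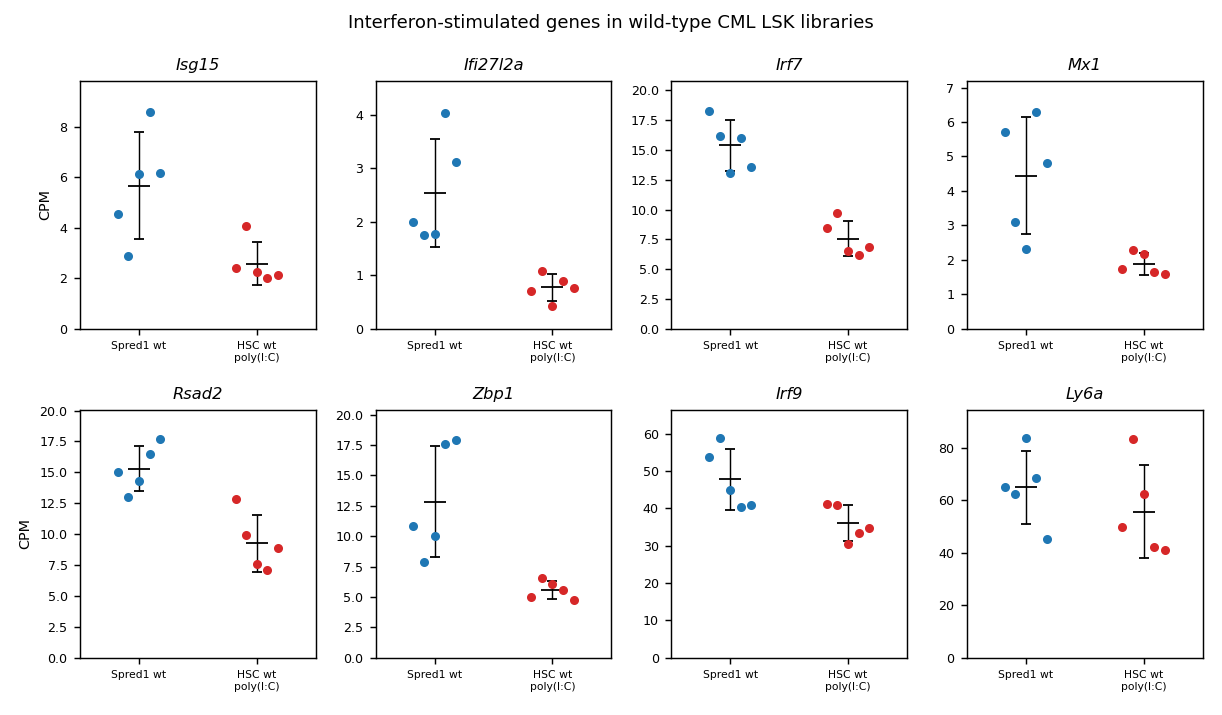
CPM (linear axis) of 8 interferon-related genes in the 5 Spred1 wt libraries (blue) and the 5 HSC wt libraries given poly(I:C) (red), with the group mean and SD as a bar. Ifi27l2a, Irf7, Mx1, Rsad2 and Zbp1 lie lower in HSC wt without overlap, Isg15, Irf9 and Ly6a overlap, and none passed at an adjusted p under 0.05.

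The motif capitalised above was held by 3.44% of all 32851 RefSeq promoter windows of 300 bases (250 before to 50 after the start) and by 3.86% of the 10320 tested genes matched to a window. It was in 19 of 43 matched effectors, 10 of 11 GTPases, 7 of 9 p200 genes, 3 of 14 MHC class I genes and 0 of 7 MHC class II genes. Of the 398 tested genes with the motif, 253 were lower and 145 higher in HSC wt, with a median log2 difference of -0.05. The effectors that held it had a median of -0.29 (16 lower, 3 higher), and those without it a median of -0.09. The medians with and without the motif were -0.30 and -0.03 for GTPases, -0.71 and -0.35 for p200 genes and -0.22 and -0.09 for MHC class I genes. As 10 of 11 GTPases and 7 of 9 p200 genes held it, their medians without it rest on very few genes. The MHC class I median with it rests on 3 genes. The order was the opposite for sensors and adaptors (0.01 with it, -0.09 without) and for receptors and signalling genes (-0.07 with it, -0.13 without), each with 3 genes that held it. Mx1, Ifi27l2a and Zbp1 had no window in the table. These are descriptions of letters in a window and not of factor binding.

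Sca-1 itself gave no call. Ly6a measured 49.8, 83.6, 62.3, 42.1 and 41 CPM in HSC wt and 65, 62.5, 83.6, 68.7 and 45.1 CPM in Spred1 wt. The highest and the lowest values of the groups nearly coincided, and the 95% interval of the log2 difference ran from -0.61 to 0.17 (-0.22 ± 0.19 SE, adjusted p = 0.892). The gate selects cells with Sca-1, so its transcript was measured only in cells that had passed it. Among the male libraries alone the difference was 0.01 on the log2 scale (adjusted p = 0.99).

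Antigen presentation followed the same direction. Of 18 tested MHC class I genes 14 were lower (median -0.08), and of 10 class II genes 10 were lower (median -0.28), with 0 calls in edgeR and 0 higher and 4 lower genes at an unadjusted p under 0.05. Among all genes tested, 3.56% were lower at that level. B2m measured 755, 798, 752, 795 and 814 CPM in HSC wt and 925, 937, 1164, 1171 and 1026 CPM in Spred1 wt. Its groups did not overlap (-0.42 ± 0.12 SE, adjusted p = 0.359), and the gene lies 5.03 Mb from Spred1, inside the window described above. Tapbp, which loads peptides on class I, also did not overlap (134 to 154 against 160 to 190 CPM, adjusted p = 0.713). Cd74, the class II invariant chain of B cells and macrophages, was at 26, 22.4, 22, 21.3 and 20.9 CPM against 111, 56.9, 39.4, 70.7 and 40.5 CPM. HSC wt was tight here and Spred1 wt library 1 the highest (-1.50 ± 0.63 SE, adjusted p = 0.695).

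Inflammatory genes showed no rise. Of 19 tested cytokines, chemokines and NF-kB regulators 15 were lower (median -0.42) and 0 passed in edgeR, with 4 lower and 0 higher at an unadjusted p under 0.05. The share of all genes that were lower at that level was 3.56%. Ccl3, a chemokine made by myeloid cells and by CML stem cells, measured 36.8, 49.1, 72, 48.2 and 43 CPM in HSC wt and 105, 62.6, 125, 81.3 and 78.6 CPM in Spred1 wt. Only HSC wt library 3 lay above the lowest Spred1 wt library (-0.86 ± 0.26 SE, adjusted p = 0.453). Its neighbour Ccl4 overlapped more (15.1 to 20.7 against 17.6 to 39.6 CPM, adjusted p = 0.626). Acod1, the itaconate-producing enzyme of activated macrophages, was named after its values were seen. It was at 0.0472 to 0.325 CPM against 0.38 to 2.1 CPM, without overlap (-2.47 ± 0.51 SE, adjusted p = 0.103).

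Stem cell and cell cycle genes, which interferon can change in the marrow, lay close to even. Of 25 stem cell genes 12 were higher and 13 lower (median -0.01). Of 16 genes of DNA replication 13 were higher (median 0.05), and of 20 genes of G2 and mitosis 13 were lower (median -0.02). None of these lists held a call in edgeR, and 0 genes of the 3 lists had an unadjusted p under 0.05. Cdkn1c, the inhibitor p57 of quiescent stem cells, was at 1.85 to 4.87 CPM in HSC wt and 3.05 to 6.48 CPM in Spred1 wt (-0.58 ± 0.32 SE, adjusted p = 0.808). Myc was at 350 to 418 CPM and 246 to 360 CPM (0.32 ± 0.10 SE, adjusted p = 0.528).

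Marker lists of plasma, lymphoid, neutrophil and macrophage cells also had medians away from 0. Of 8 tested plasma and plasmacytoid markers 7 were lower in HSC wt, with the lowest median of all 31 lists, -1.60. Their summed level was 203 to 334 CPM in HSC wt and 410 to 709 CPM in Spred1 wt, without overlap. Of the 13 members of the list 9 had deposited counts, and the immunoglobulin genes Igkc, Ighm, Iglc1 and Iglc2 did not. The plasmacytoid gene Siglech was near 0 and even, at a mean of 0.401 CPM in HSC wt and 0.375 CPM in Spred1 wt. Jchain, which joins antibody polymers, measured 54.8, 50.5, 118, 66.8 and 97.2 CPM against 441, 323, 170, 313 and 161 CPM (-1.86 ± 0.71 SE, adjusted p = 0.636). Mzb1, a chaperone of antibody secretion, likewise did not overlap (1.04 to 3.53 against 4.47 to 11.9 CPM, adjusted p = 0.523). Of 16 lymphoid priming genes 14 were lower (median -0.81), though their summed level overlapped at 1403 to 1761 CPM and 1382 to 2136 CPM. The lymphoid median was -0.45 without Spred1 wt library 2, -0.54 without Spred1 wt library 1 and -0.50 when only the 2 groups entered the fit. Cd79a, part of the B cell receptor, was at 0.719 to 1.67 CPM against 2.7 to 7.44 CPM (-1.95 ± 0.63 SE, adjusted p = 0.529), and Ly6d, a marker of B-lineage commitment, at 0.779 to 1.56 CPM against 2.04 to 11.9 CPM (adjusted p = 0.601). Ccr9, the homing receptor of thymus-seeding and plasmacytoid cells, was at 1.69 to 4.2 CPM against 5.27 to 21.1 CPM (adjusted p = 0.601). None of these genes passed.

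Mature neutrophil markers went the other way, with 12 of 13 higher in HSC wt (median 0.95) and a summed level of 190 to 948 CPM against 75.4 to 865 CPM. The neutrophil median was 1.83 without Spred1 wt library 1 and 1.59 with limma voom and quality weights. Mmp8, the neutrophil collagenase, measured 29.3, 37.2, 15.8, 26.9 and 6.85 CPM in HSC wt and 11.2, 3.8, 14.9, 3.96 and 3.32 CPM in Spred1 wt. HSC wt library 5 lay within the range of Spred1 wt (1.64 ± 0.45 SE, adjusted p = 0.357 in edgeR, 0.0492 in DESeq2). No other member of any list but the sex-linked one was called by DESeq2, and none by limma voom. Mmp9, the gelatinase, split in the same way, 3.92 to 34.9 CPM against 0.665 to 14 CPM (1.97 ± 0.86 SE, adjusted p = 0.727).

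Of 15 macrophage and monocyte markers 13 were lower (median -0.91), with summed levels of 185 to 330 CPM and 267 to 450 CPM. Without Spred1 wt library 1 the macrophage median was -0.50. C1qa, a complement subunit of tissue macrophages, measured 0.634 to 1.3 CPM in HSC wt and 13.6, 3.37, 0.827, 3.05 and 2.28 CPM in Spred1 wt, so that library 1 again stood out (-2.21 ± 0.99 SE, adjusted p = 0.74). Of 14 mast cell and basophil markers 14 were lower (median -0.54), with summed levels of 3806 to 6999 CPM and 2806 to 16795 CPM. The mast cell median was -0.32 without Spred1 wt library 3 and -0.08 with limma voom and quality weights. No defining marker of the neutrophil, macrophage, mast cell or plasma lists that was in the table was at 0 in both groups.

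**Figure D4:**
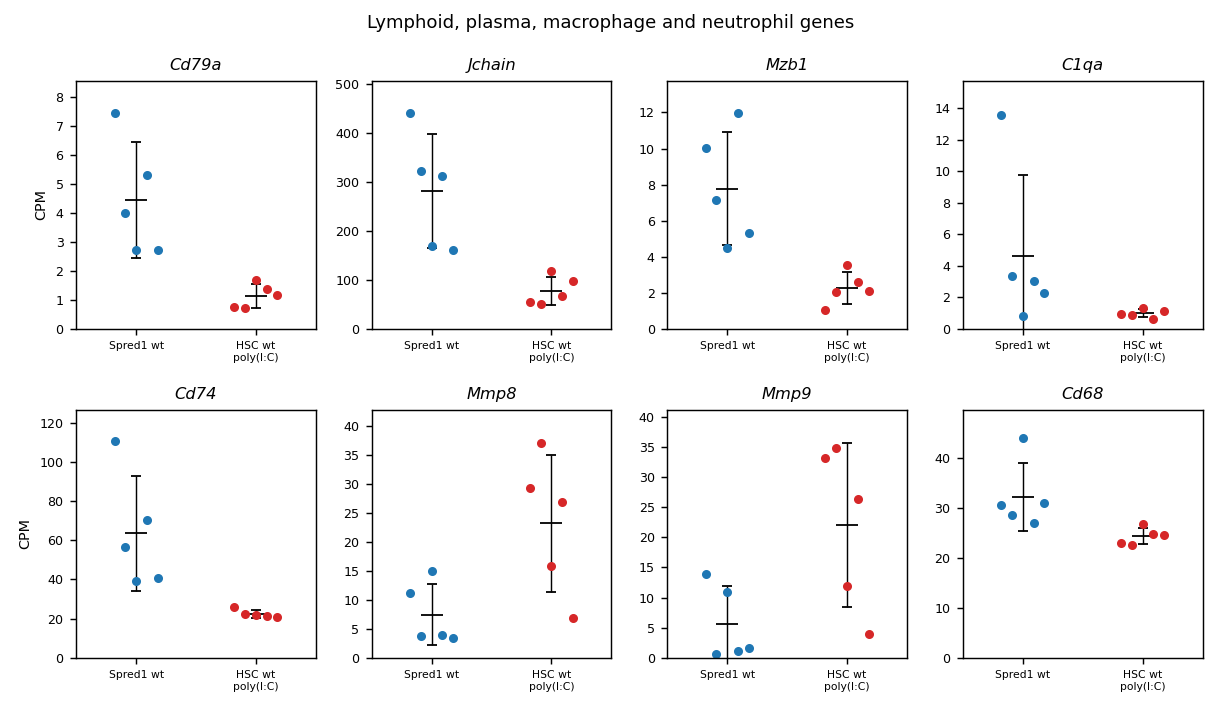
CPM (linear axis) of lymphoid (Cd79a), plasma (Jchain, Mzb1), macrophage and antigen-presenting (C1qa, Cd68, Cd74) and neutrophil (Mmp8, Mmp9) genes in the 5 Spred1 wt (blue) and 5 HSC wt (red) libraries, with the mean and SD as a bar that is cut at 0 for C1qa and Mmp9. Cd79a, Jchain, Mzb1, Cd74 and Cd68 are lower in HSC wt without overlap, and the others overlap.

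The interferon medians shifted when cell type transcripts were put in the fit. With a covariate for macrophage transcripts the medians became -0.03 for effectors, 0.02 for GTPases, 0.17 for p200 genes, 0.07 for MHC class II and -0.04 for lymphoid genes, while plasma markers had a median of -0.79. In the same fit other medians lay farther from 0, at -0.65 for inflammatory cytokine, chemokine and NF-kB genes (-0.42 without the covariate), 1.55 for neutrophil markers (0.95 without it) and -0.86 for mast cell markers (-0.54 without it). Without Spred1 wt library 1, the p200 median was 0.06, the GTPase median -0.32 and the effector median -0.15. With limma voom and quality weights the p200 median was -0.19 and the effector median -0.32. With a covariate for mast cell transcripts the effector median was -0.27, and 49 genes passed (6 higher, 43 lower), among them Irf7, Ifi27l2a, B2m, Cd74, Jchain, Mzb1, Cd79a and Ly6d. These covariates are means of marker lists in the same libraries, and the macrophage list itself lay lower in HSC wt (median -0.91). Such a refit takes up part of any difference between the groups, so it cannot separate cell content from the rest. The part of other cell types in the interferon values was not tested.

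Stress and metabolic lists were mixed. Of 16 genes of the unfolded protein and ATF4 response 15 were lower (median -0.33, near the -0.34 of the GTPases). At an unadjusted p under 0.05, 5 of them were lower, against 3.56% of all genes. The list median was -0.13 without Spred1 wt library 4 and -0.17 with limma voom and quality weights. Chac1, an ATF4 target and the member of smallest p, lies 2.23 Mb from Spred1, inside the window described above. It was high in Spred1 wt library 4 (9.55 CPM, next 2.54 CPM), with a log2 difference of -2.62 (adjusted p = 0.36). Trib3, a pseudokinase induced by ATF4, measured 2.74, 2.46, 2.37, 1.85 and 2.03 CPM in HSC wt and 3.85, 3.7, 1.76, 15.7 and 5.14 CPM in Spred1 wt, with library 4 far above the rest (-1.39 ± 0.39 SE, adjusted p = 0.36). Ddit3, the stress factor CHOP, was at 8.72 to 10.3 CPM against 10.3 to 19.7 CPM (-0.57 ± 0.18 SE, adjusted p = 0.468). Of 17 cholesterol synthesis genes 14 were higher (median 0.14). Sqle, the squalene epoxidase, was at 37 to 42 CPM against 32.6 to 37.1 CPM, with overlap of 1 library in each group (0.21 ± 0.10 SE, adjusted p = 0.74).

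The knockout groups offered the same stated contrast in libraries that the wild-type comparison does not use: HSC KO, with stated poly(I:C), against global KO, without it. They also differ in how Spred1 was deleted and in sex. HSC KO held 3 female and 2 male libraries, and global KO held 0 female and 6 male. In this second comparison 9 genes passed (0.0673%), 4 higher (0.0299%) and 5 lower (0.0374%), and 0 genes passed in both. Hist1h4m was called there, 0.395 to 1.07 CPM in HSC KO against 0 to 0.161 CPM in global KO (3.35 ± 0.52 SE, adjusted p = 0.00243), the same direction as between the controls. Depdc7 was higher without overlap in both comparisons, with 4.67 to 7.38 CPM in HSC KO against 1.35 to 3.82 CPM in global KO (1.07 ± 0.23 SE, adjusted p = 0.078). Kcnip3 was at 0.461 to 0.799 CPM and 0.647 to 1.45 CPM (-0.63 ± 0.42 SE, adjusted p = 0.689), and these groups overlapped.

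Of the 850 genes with an unadjusted p under 0.05 between the controls, 689 (81.1%) had the same sign between the knockout groups, against 64.9% of all 13379 genes. Across genes the log2 differences of the comparisons correlated at Pearson r = 0.36, a description over genes that are not independent. The libraries share line and stated poly(I:C) within each HSC group. In both comparisons only the HSC group held female libraries, so sex is shared as well. The interferon medians were nearer 0 there: -0.08 for effectors, -0.02 for GTPases, -0.08 for p200 genes and -0.08 for receptors and signalling. Neutrophil markers had a median of 1.83 and macrophage markers of -1.06, in the direction seen between the controls, whereas plasma markers had a median of -0.09. Some lists reversed, with mast cell markers 11 of 14 higher (median 0.24) and erythroid markers 9 of 11 higher (median 0.39). Stem cell genes, close to even between the controls, were 22 of 25 lower (median -0.29). Ccl3 was again lower (43.2 to 71.2 CPM in HSC KO, 58.2 to 149 CPM in global KO, -0.83 ± 0.25 SE, adjusted p = 0.331), and so was Dusp5, a phosphatase that restrains nuclear ERK. Dusp5 was at 7.61 to 12.3 against 12.4 to 18.8 CPM between the controls, without overlap (-0.72 ± 0.22 SE, adjusted p = 0.453), and at 7.13 to 11.2 against 10.4 to 28.6 CPM between the knockout groups (-0.88 ± 0.21 SE, adjusted p = 0.152).

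**Figure D5:**
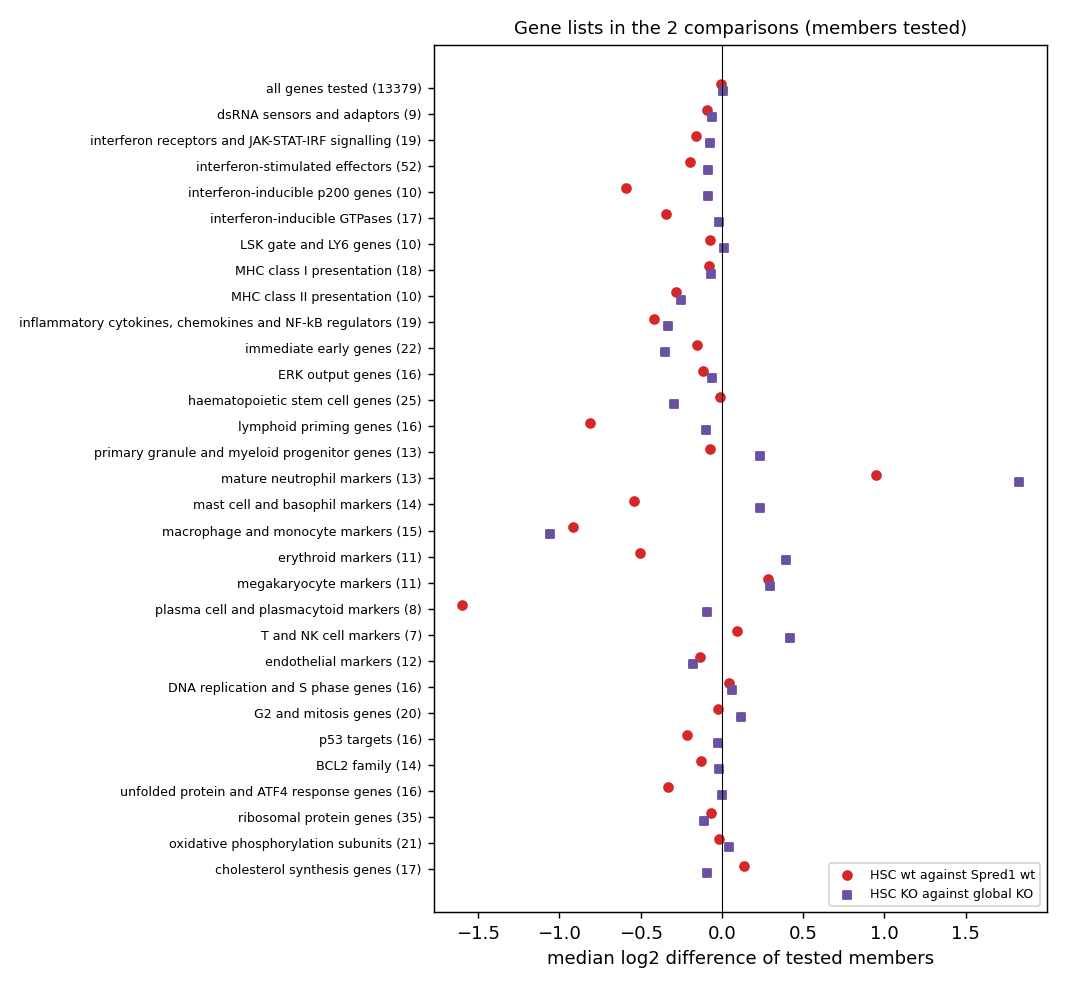
Median log2 difference (x axis) of the tested members of each gene list (number of members in brackets) for HSC wt against Spred1 wt (red circles) and for HSC KO against global KO (purple squares). Interferon lists lie left of 0 in both comparisons, neutrophil markers to the right in both, and plasma and lymphoid lists are far left between the controls.

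Tested directly, the 2 comparisons differed for 2 genes (0.0149%), Mtrr and Fastkd3, neighbours on chromosome 13. Mtrr, which reactivates methionine synthase, measured 28.4 to 31.2 CPM in HSC KO and 12.9 to 16.1 CPM in global KO, without overlap, while the wild-type groups were at 29.1 to 33 CPM and 23.8 to 31.8 CPM. Fastkd3, a mitochondrial RNA-binding protein, measured 23.6 to 29.3 CPM and 9.63 to 13.2 CPM in the knockout groups, against 19.8 to 27.6 CPM and 22.5 to 25 CPM in the wild-type groups. Global KO was thus the low group for both genes. The log2 effect of the controls minus that of the knockouts was -0.98 ± 0.10 (SE, adjusted p = 5.48e-06) for Mtrr and -1.23 ± 0.15 (SE, adjusted p = 8.37e-05) for Fastkd3. For the interferon genes and Kcnip3 this test made no call.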

How the data were processed

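Gene expression of sorted LSK cells was measured by RNA sequencing in 26 libraries of 5 groups, grouped by their titles. The authors deposited whole-number read counts for each gene, not normalized. The submitters' processing notes name HTSeq 0.6.0, STAR 2.6.0, edgeR 3.28.1, bcl2fastq 2.18.0.12 and the build mm10. Annotation and strandedness of counting are not given in the sources used here, so counts of overlapping genes and near-identical paralogs (histones, class I genes, interferon gene families) are uncertain. Of 24091 genes, 5297 had 0 counts throughout, 0 pairs of columns were identical and 0 columns were left unmapped.

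In R 4.3.3, filterByExpr of edgeR 4.0.16 (minimum count 10) left 13379 genes. All 26 libraries entered 1 fit of 5 group means (TMM normalization, robust quasi-likelihood F-test, two-sided, 21 residual degrees of freedom, biological coefficient of variation 0.205). A gene was called at p under 0.05 after Benjamini-Hochberg adjustment across all 13379 genes. CPM use TMM-scaled library sizes, and fitted log2 differences can differ from ratios of mean CPM. Intervals are at 95%. Sex was read from Xist (female, 500 CPM or more) and from the sum of Y-linked genes (male, 20 CPM or more). Lists are described by counts and medians, with no list test.

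The members and lists were chosen with earlier results of these data known. Named genes are Spred1, Ly6a, all called genes, the 5 rises of smallest p (as no gene was called higher) and up to 4 members of each list by p. The sex-linked genes of that rule are reported only as counts of libraries, the text narrows the rest, and some genes are not reported here. Mx1, Rsad2, Grap, Cd59a, Acod1, Eif3j1, Snap23, Spg11, and Mtrr and Fastkd3 were named after their values were seen. Alternatives were DESeq2 1.42.0, limma voom 3.58.1 with quality weights, RLE and upper-quartile normalization, no filter or 1 CPM in 5 libraries, the compared groups only, sex, mast cell and macrophage covariates, male libraries only, a log2 threshold of 1 and each library left out. The alternatives for the difference of the 2 comparisons were added after seeing the data. The fit was tested on simulated counts with known changes. Figures used Python 3.11.15 and matplotlib 3.10.9.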

Additional observations from a re-analysis of the deposited data

Results flagged for a closer look

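Among the genes named here, 148 groups of 5 or 6 values were examined for a single library far from the rest of its group. The cutoff would flag about 1 in 20 groups of independent, normally distributed values. CPM of related genes, some named after their values were seen, are not such values, so the count carries no test. Of the groups examined, 13 held such a library. Of these, 2 were in HSC wt: Isg15 was high in library 2 (4.08 CPM, next 2.41 CPM) and Sqle, a cholesterol synthesis enzyme, was low in library 3 (37 CPM, next 41.3 CPM). Spred1 wt library 1 stood apart in 3 genes, high in Ifi211 of the p200 family (1.80 CPM, next 0.649 CPM), in the GTPase gene Igtp (29.4 CPM, next 26.3 CPM) and in the macrophage gene C1qa (13.6 CPM, next 3.37 CPM). Library 3 of Spred1 wt was high in Tapbp (190.5 CPM, next 169 CPM), in the cytokine gene Il1a (14.5 CPM, next 4.10 CPM) and in the lysosomal gene Cd68 (43.9 CPM, next 30.9 CPM). Library 4 was high in Cox6a2, a respiratory chain subunit found in plasmacytoid cells (8.83 CPM, next 3.27 CPM), and in the ATF4 targets Chac1 (9.55 CPM, next 2.54 CPM) and Trib3 (15.7 CPM, next 5.14 CPM), and low in Cd59a, a complement inhibitor (3.64 CPM, next 4.68 CPM). In the knockout groups, St6galnac2, a sialyltransferase, was at 0.128 CPM in HSC KO library 4 (next 0.0658 CPM), a level of very few counts.

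Mtrr and Fastkd3 were noted because the comparison of the controls and that of the knockout groups differed for them by the test of the difference itself, with log2 values of -0.98 and -1.23.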

How the results depend on the processing

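The count of genes between the controls, 4 in the reported fit, was 35 with DESeq2 (11 higher, 24 lower), 18 with limma voom, 1 with only the compared groups in the fit (St6gal1, not among the 4), 1 with male libraries only (Kcnip3), 49 with the mast cell covariate and 10 with the macrophage covariate. All 4 genes were among the calls of DESeq2, limma voom and both cell type covariates. Leaving out 1 library gave 1 to 21 calls, with 21 without Spred1 wt library 1. Between the knockout groups, 9 calls became 45 with DESeq2, 75 with limma voom, 3 with male libraries, 23 with the mast cell covariate, 5 at a log2 threshold of 1, and 5 to 17 on leaving out 1 library (17 without global KO library 2). The 2 calls of the difference became 7 with DESeq2, 5 with limma voom, 1 with male libraries, 1 at the log2 threshold, and 2 to 7 on leaving out 1 library (7 without Spred1 wt library 1, 4 without global KO library 2). The cause of these shifts was not tested. Ly6a turned from -0.22 to 0.01299 with male libraries only. RLE, upper-quartile normalization and both other filters kept the counts within 1.5 times. No paired analysis was possible because the titles number each library once across the series and the groups share no replicate numbers. Genes far below 1 CPM, such as Hist1h4m, rest on few counts.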
